A study of Mus musculus with 24 samples.

Results

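The genes described here mark Müller glia, the radial glial cells of the retina, or change when these cells become reactive. The 10 genes, taken by symbol from the table of normalized counts, were Glul, Slc1a3, Kcnj10, Aqp4, Rlbp1, Vim, Gfap, Sox9, Apoe and Clu, and all 10 were found among its 28802 genes. They were chosen as known genes of these cells, at a time when earlier results of the same libraries were known. Müller glia span the whole depth of the retina, clear glutamate, potassium and water from the space around neurons, and help to return visual pigment to cones. After injury they become reactive, a state called gliosis in which the intermediate filament proteins Gfap and Vim usually rise. In the uninjured mouse retina most Gfap belongs to astrocytes of the nerve fibre layer.

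Retinas of wild type mice were collected at postnatal day 28 and their total RNA was sequenced after depletion of ribosomal RNA. The mice belonged to 8 inbred strains with 3 libraries each, 24 in all, and no group received a treatment. The strains were 129S1/Svlmj, C57BL/6J, NOD/ShiLtJ, A/J and NZO/HlLtJ, which are classical laboratory strains, and PWK/PhJ, WSB/EiJ and CAST/EiJ, which derive from wild mice. The 3 libraries of an inbred strain share 1 genotype, so a strain stands for that genotype alone. Comparing the strains asks how far the level of each gene in the whole retina depends on the genetic background.

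The deposited values are in cpm (read counts of a gene per M, or mega, of reads in its library): the authors divided each count by the total of its library and added 0.0001 to every value. The values of each library sum to well under 1 M cpm, for a reason that is not stated, so a cpm here is not a share of the reads counted in the table's genes. The step of 1 read among the lowest values placed the totals between 57.6 and 78.1 M reads per library, with a median of 68.9 M. In M reads, totals ran from 61.5 to 76.3 in 129S1/Svlmj, 59.4 to 78.1 in C57BL/6J, 71.7 to 76.2 in NOD/ShiLtJ and 61.8 to 76.3 in A/J. They ran from 58.6 to 70.5 in PWK/PhJ, 57.6 to 71.8 in WSB/EiJ, 63.8 to 69.6 in NZO/HlLtJ and 73.0 to 77.9 in CAST/EiJ. A value of 3 reads, taken as the limit of detection and covering counting error only, corresponded to 0.0384 to 0.0521 cpm, and all 10 genes lay above it in all 24 libraries. The lowest value of any of the 10 was 1.20 cpm, for Sox9. Means are given ± SD with n = 3 libraries. Reads of every strain were aligned to GRCm38, the genome of C57BL/6J, so a lower level and poorer alignment of reads that differ from this reference cannot be told apart, above all in the wild-derived strains.

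The label of the tissue was checked against marker genes. Summed levels were 9619 to 12896 cpm for 8 rod markers, 189 to 318 cpm for 6 cone markers, 372 to 574 cpm for 6 bipolar markers, 133 to 165 cpm for 6 amacrine markers and 130.4 to 233 cpm for 6 ganglion cell markers. All of these retinal cell types were thus represented in each library. A list of 12 Müller glia markers, of which 9 are among the 10 genes described here, summed to 1080 to 1588 cpm with Glul as its most abundant gene. In RNA from whole retinas, fewer Müller glia and less RNA of a gene in each cell cannot be told apart.

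Some libraries stood apart. Replicate 2 of 129S1/Svlmj (library TA011) and replicate 2 of NOD/ShiLtJ (library TA017) held 1513 and 1697 cpm summed over 7 lens genes, against 4.80 to 198 cpm, with a median of 17.0 cpm, in the other 22 libraries. Cryaa, which encodes a lens crystallin, was the most abundant of the 7 and reached 725 and 755 cpm in the 2 libraries. No lens gene was at 0 in any library. Vim is also expressed in lens cells, and it was highest in the same 2 libraries. The next library by lens genes, replicate 2 of C57BL/6J, summed to 198 cpm. Replicate 3 of NOD/ShiLtJ (library TA018) was high for Gfap and Sox9 without lens genes, which summed to 15.6 cpm. The counts of called genes, and calls of the 10 genes that changed, are therefore also given without these libraries, a comparison that was chosen after the data were seen. Gene lists, spans and levels use all 24 libraries unless stated.

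Xist, which is transcribed from the inactive X chromosome, reached 906 to 1081 cpm in 4 libraries, replicate 3 of 129S1/Svlmj, C57BL/6J and CAST/EiJ and replicate 2 of PWK/PhJ. In these the Y-linked gene Ddx3y was at most 0.118 cpm, against 24.8 to 35.2 cpm in the other 20, where Xist was 0.123 to 9.71 cpm. The labels do not state sex. Nnt, which is disrupted in C57BL/6J, was 4.82 ± 0.105 cpm there and ranged over the other strains from 3.41 ± 0.193 cpm in NZO/HlLtJ to 7.45 ± 0.306 cpm in NOD/ShiLtJ, so its level did not set C57BL/6J apart. Across all genes, libraries correlated at 0.995 to 0.999 within strains and at no more than 0.993 between strains.

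**Figure D1:**
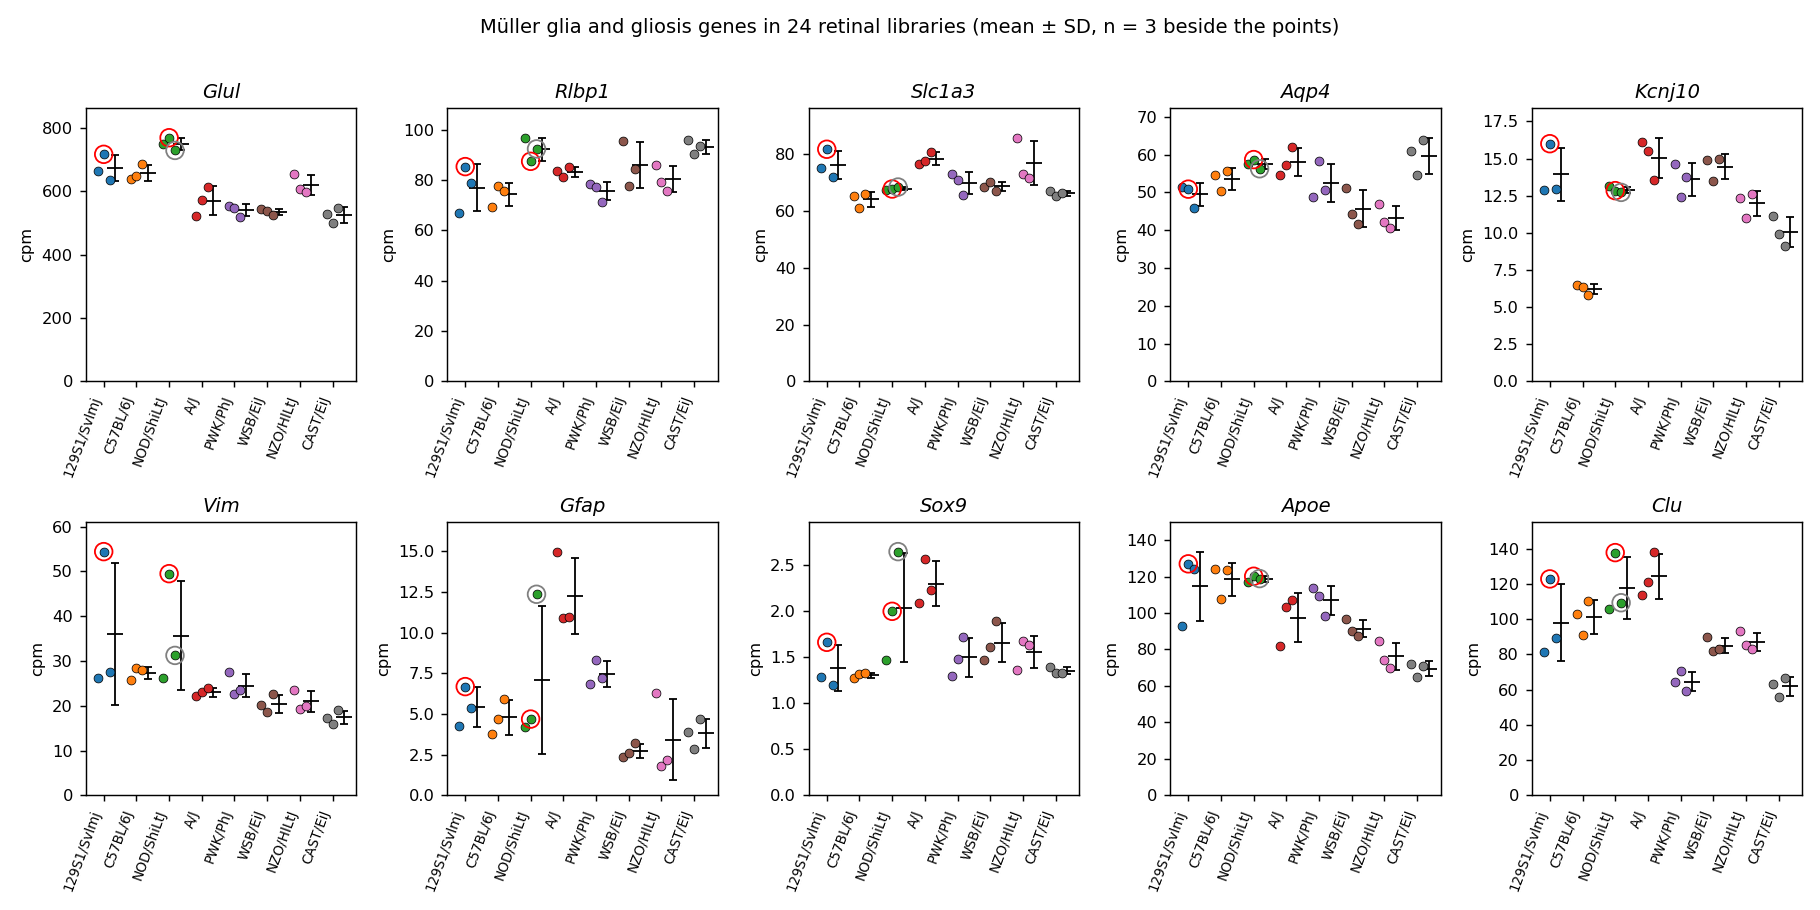
Level of each of the 10 genes in cpm (vertical axes, from 0) in every library of the 8 strains (horizontal axes), with the mean and SD of the 3 libraries beside the points. Red circles mark the lens-rich replicates 2 of 129S1/Svlmj and NOD/ShiLtJ, and the grey circle marks replicate 3 of NOD/ShiLtJ; Kcnj10 in C57BL/6J sits between 5.81 and 6.52 cpm, below the other 21 libraries.

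Levels of different genes were compared per kilobase (kb) of merged exon length in GENCODE M21, whereas the authors name RefSeq as the annotation of their counts. On this scale Glul had the highest mean over the 24 libraries, 183 cpm per kb, followed by Apoe with 46.4, Rlbp1 with 28.0 and Clu with 26.9 cpm per kb. Aqp4 and Slc1a3 had 8.41 and 8.33 cpm per kb, and Vim had 5.41. The lowest were Kcnj10 with 2.27, Gfap with 1.39 and Sox9 with 0.396 cpm per kb. The potassium channel, the gliosis filament gene and the transcription factor were thus the least abundant of the 10.

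Differences between strains were tested with limma on log2(cpm + 1), a model that shares information on the spread between libraries over genes. It was fitted to the 16400 genes whose mean reached 0.5 cpm, which include all 10 genes, and a gene was called at a q-value (the share of false calls expected at that limit) under 0.01. By the F-test over the 8 strains all 10 genes were called, but so were 97.2% of all genes tested, and this count says nothing about the 10 genes in particular. The share also depends on the adjustment: with Benjamini-Hochberg adjusted p in place of q-values it was 70.6% of all genes. F-test calls of the gene lists below use q-values. Of the 280 comparisons of a gene between 2 strains, 110 (39.3%) were called, against 30.2% over all genes. The number of pairs called was 17 of 28 for Glul and Clu, 14 for Kcnj10 and Apoe, 9 for Slc1a3, Aqp4 and Sox9, 8 for Gfap, 7 for Vim and 6 for Rlbp1, with a median of 9 against 8 over all genes tested. With 3 libraries in each strain, differences close to the spread between libraries pass this limit or miss it by the choice of 1 library.

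The span between the highest and the lowest strain mean, in log2 units, was largest for Gfap at 1.82, wider than in 96.7% of all genes tested. Kcnj10 spanned 1.15 (wider than 91.4% of genes), Clu 0.99 (88.2%), Vim 0.95 (87.1%) and Apoe 0.77 (80.7%). Spans were smaller in Sox9 and Glul at 0.51 each, Aqp4 at 0.46, Rlbp1 at 0.32 and Slc1a3 at 0.29. The median span of the 10 genes was 0.64, against 0.43 over all genes tested. As folds of mean cpm, the spans ran from 1.22 for Slc1a3 to 4.49 for Gfap.

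Each strain was then compared with the mean of the other 7; the 8 comparisons share libraries and are given side by side. In 129S1/Svlmj 4 of the 10 genes were called higher (14.5% of all genes tested) and 0 lower (13% of all genes). In C57BL/6J 2 were higher (12.5%) and 2 lower (10%), and in NOD/ShiLtJ 5 were higher (14.9%) and 0 lower (9.14%). In A/J 5 were higher (15.1%) and 0 lower (12.6%). Among the wild-derived strains, 1 gene was higher (26.6%) and 2 lower (22.8%) in PWK/PhJ, 1 higher (12.7%) and 3 lower (21.9%) in WSB/EiJ, and 2 higher (20.3%) and 5 lower (29.1%) in CAST/EiJ. In NZO/HlLtJ 0 were higher (12.7%) and 3 lower (13.2%). Calls in 129S1/Svlmj, NOD/ShiLtJ and A/J were all upward, those in WSB/EiJ, NZO/HlLtJ and CAST/EiJ mostly downward, and those in C57BL/6J and PWK/PhJ mixed.

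The counts moved in all 8 strains as single libraries were left out, and by more than 1.5 times in 4 of them. Without replicate 2 of 129S1/Svlmj its count of 4 fell to 0, and without replicate 2 or replicate 3 of NOD/ShiLtJ its count of 5 fell to 2 or 3. The count of 4 in C57BL/6J fell to 2 without any 1 of its own 3 libraries, and that of 4 in WSB/EiJ fell to 2 without its replicate 2. Without both lens-rich libraries 129S1/Svlmj had 0 genes higher and 1 lower (Rlbp1), and NOD/ShiLtJ again had 5 higher, while C57BL/6J rose to 4 higher with Vim and Clu (0.24, q = 0.00287), WSB/EiJ to 4 lower with Vim and NZO/HlLtJ to 1 higher with Slc1a3 (0.14, q = 0.00766). Without replicate 3 of NOD/ShiLtJ as well, 129S1/Svlmj had 0 in either direction and NOD/ShiLtJ had 1 higher, Glul, while A/J kept 5 higher and CAST/EiJ 2 higher and 5 lower. That setting leaves 1 NOD/ShiLtJ library, which is assumed to vary like the libraries of other strains. There the differences of Apoe (0.32, against 0.33 in the full set), Clu (0.32, against 0.43) and Rlbp1 (0.27, against 0.18) remained upward while their q-values rose to 0.0737, 0.0319 and 0.0339, so these lost calls do not show that the differences came from the libraries left out.

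**Figure D2:**
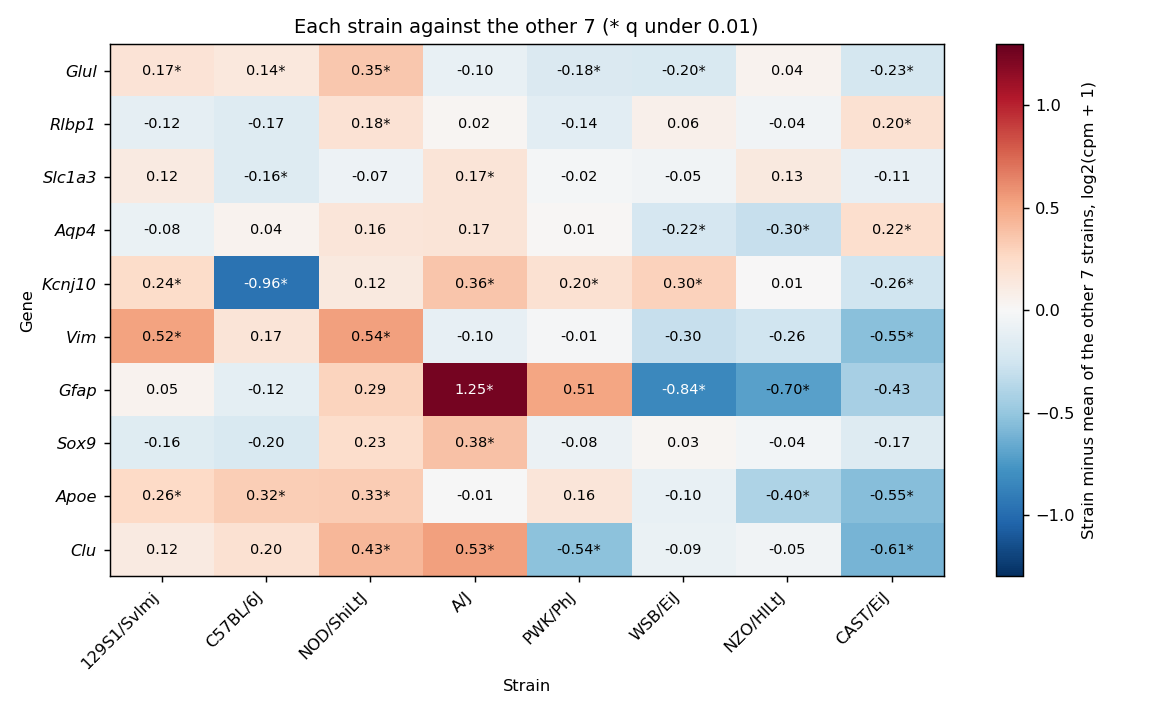
Difference of each strain (columns) from the mean of the other 7 strains for each gene (rows), in log2(cpm + 1), with red for higher, blue for lower and an asterisk at a q-value under 0.01. The extremes are Gfap in A/J at 1.25 and Kcnj10 in C57BL/6J at -0.96.

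Of the 80 combinations of a gene and a strain, 35 were called, 15 of them under each of the 37 alternative settings tried (36 for Sox9, which falls under the stricter filter on low values). Leaving out each library in turn kept 17 of the 35. The count of 35 is to be read against the shares of all genes called in each strain, given above. How many calls over all genes held under the settings, or as each library was left out, was not computed. The counts of 15 and 17 therefore say nothing about these genes in particular. A stricter view, in which all 3 libraries of a strain lie outside the range of the other 21, was met by 2 combinations. Glul in NOD/ShiLtJ lay above, as did 2.81% of all gene and strain combinations, and Kcnj10 in C57BL/6J lay below, as did 2.59%.

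The first group of genes clears transmitter, potassium and water or recycles retinoid. Glul (ENSMUSG00000026473.15, chr1:153899944-153909723) encodes glutamine synthetase, which turns glutamate and ammonia into glutamine. In NOD/ShiLtJ its 3 libraries held 750.1, 769 and 729 cpm, and in 129S1/Svlmj 664, 716 and 637 cpm. C57BL/6J had 639.6 to 685 cpm, NZO/HlLtJ 596 to 656 cpm and A/J 523 to 614 cpm. The wild-derived strains had 518 to 555 cpm in PWK/PhJ, 525 to 543 cpm in WSB/EiJ and 499.5 to 548 cpm in CAST/EiJ. The NOD/ShiLtJ libraries were above all others, although the lens-rich 129S1/Svlmj library at 716 cpm came close to them, and the 3 wild-derived strains overlapped each other at the low end. From high to low the means were 749 ± 20.1 cpm in NOD/ShiLtJ, 672 ± 40.5 in 129S1/Svlmj, 657 ± 24.5 in C57BL/6J, 619.9 ± 31.5 in NZO/HlLtJ, 570.0 ± 45.6 in A/J, 540.2 ± 19.8 in PWK/PhJ, 536 ± 9.59 in WSB/EiJ and 525 ± 24.2 in CAST/EiJ.

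Against the other 7 strains, Glul was higher in NOD/ShiLtJ by 0.35 (q = 3.66e-07) and lower in CAST/EiJ (-0.23, q = 2.86e-05) and PWK/PhJ (-0.18, q = 0.000289), in 3 of 3 libraries of each strain. These 3 calls held under all 37 settings, and the difference in NOD/ShiLtJ ran from 0.34 to 0.37 as single libraries were left out. The call in WSB/EiJ (-0.20, q = 0.000302) was lost with quantile normalization, at -0.09. The call in 129S1/Svlmj (0.17, q = 0.0012) was lost without its replicate 2 (0.13, q = 0.0244). The call in C57BL/6J (0.14, q = 0.00883) held in 17 of 37 settings and turned to -0.09 with quantile normalization. It was lost without any 1 of 15 libraries, with q-values of 0.0101 to 0.078: replicates 1 and 3 of 129S1/Svlmj and NOD/ShiLtJ, 1, 2 and 3 of C57BL/6J, 2 of A/J, 2 and 3 of PWK/PhJ and NZO/HlLtJ, 3 of WSB/EiJ, and 1 and 2 of CAST/EiJ. Neighbours in the order of Glul levels did not differ at q under 0.01, and NOD/ShiLtJ passed 129S1/Svlmj at a lowest q of 0.00496 when replicate 2 of 129S1/Svlmj or replicate 1 of A/J was left out, as NZO/HlLtJ passed A/J (q = 0.00997) without replicate 3 of A/J. Its exons overlap those of Teddm2 on the opposite strand over 3.49% of their bases, and whether the authors counted reads by strand is not stated.

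Slc1a3 (ENSMUSG00000005360.14, chr15:8634124-8710764) encodes the glutamate transporter GLAST. It was among the steadiest of the 10, from 61.0 to 85.9 cpm over all libraries, with means from 78.5 ± 2.23 cpm in A/J through NZO/HlLtJ, 129S1/Svlmj, PWK/PhJ, WSB/EiJ, NOD/ShiLtJ and CAST/EiJ to 64.1 ± 2.76 cpm in C57BL/6J. The highest value belonged to replicate 1 of NZO/HlLtJ, while the other 2 libraries of that strain had 73.1 and 71.8 cpm. Slc1a3 was higher in A/J by 0.17 (q = 0.00198) and lower in C57BL/6J (-0.16, q = 0.00304). The call in A/J was lost without its replicate 2 (0.17, q = 0.0114) or 3 (0.14, q = 0.0235), and that in C57BL/6J without its replicate 2 (-0.13, q = 0.0346).

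Calls of Slc1a3 also appeared in strains that missed the limit in the full set. CAST/EiJ (-0.11, q = 0.0118) was called with differences of -0.11 to -0.10 and q-values of 0.00785 to 0.00907 without replicate 3 of 129S1/Svlmj, 2 of C57BL/6J, 3 of PWK/PhJ, or 1 or 3 of NZO/HlLtJ. NZO/HlLtJ (0.13, q = 0.0111) was called without replicate 2 of 129S1/Svlmj (q = 0.00643), 1 of PWK/PhJ (q = 0.00939) or 3 of NZO/HlLtJ (0.18, q = 0.00638), but was 0.05 (q = 0.257) without its replicate 1. The difference of 129S1/Svlmj (0.12, q = 0.0148) was called without replicate 1 of NZO/HlLtJ (q = 0.00277), but was 0.07 (q = 0.133) without its own replicate 2. With quantile normalization all 3 strains were called (0.14 in 129S1/Svlmj and NZO/HlLtJ, -0.11 in CAST/EiJ), and with median-ratio scaling NZO/HlLtJ was (0.13).

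Kcnj10 (ENSMUSG00000044708.5, chr1:172341210-172374085) encodes Kir4.1, the channel through which Müller glia take up and release potassium. Its 3 C57BL/6J libraries held 6.52, 6.32 and 5.81 cpm. The CAST/EiJ libraries held 11.1, 9.91 and 9.11 cpm and the NZO/HlLtJ libraries 12.3, 11.0 and 12.6 cpm. C57BL/6J was thus below each of the other 21 libraries with a gap, and CAST/EiJ was next. NOD/ShiLtJ had 13.1, 12.8 and 12.7 cpm, PWK/PhJ 14.6, 12.4 and 13.7 cpm, and 129S1/Svlmj 12.9, 16.0 and 12.9 cpm. WSB/EiJ had 14.9, 13.5 and 15.0 cpm and A/J 16.1, 15.5 and 13.5 cpm. NOD/ShiLtJ lay below WSB/EiJ and A/J, while PWK/PhJ and 129S1/Svlmj overlapped all 3, and the lens-rich library was the highest of 129S1/Svlmj.

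The mean of Kcnj10 was 6.22 ± 0.368 cpm in C57BL/6J and 15.1 ± 1.35 cpm in A/J, a fold of 2.42. Against the other 7 strains C57BL/6J was lower (-0.96, standard error 0.0634, q = 1.72e-11), and the difference stayed between -0.99 and -0.92 as each library was left out. A/J (0.36, q = 5.13e-05) and WSB/EiJ (0.30, q = 0.000261) were higher, and these 3 calls held under all 37 settings. The order from high to low was A/J, WSB/EiJ, 129S1/Svlmj, PWK/PhJ, NOD/ShiLtJ, NZO/HlLtJ, CAST/EiJ and C57BL/6J. Of its neighbours only CAST/EiJ and C57BL/6J differed (C57BL/6J lower, -0.61, q = 1.56e-06), with q-values up to 2.62e-05 as single libraries were left out. NZO/HlLtJ and CAST/EiJ (0.23, q = 0.0137) were called at a lowest q of 0.0052 without replicate 2 of 129S1/Svlmj, 2 of NZO/HlLtJ or 1 of CAST/EiJ. The call of CAST/EiJ against the other 7 (-0.26, q = 0.00043) was lost without its replicate 3 (-0.20, q = 0.0124), and that of PWK/PhJ (0.20, q = 0.00306) without its replicate 1 (0.15, q = 0.0402) or 3 (0.19, q = 0.0162). The call of 129S1/Svlmj (0.24, q = 0.00243) was lost without its replicate 2 (0.14, q = 0.0552) and with the summed lens genes as a covariate (0.20, q = 0.0102). With Benjamini-Hochberg adjustment in place of q-values, the PWK/PhJ call was also lost at the same difference (0.20, adjusted p = 0.0112).

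C57BL/6J, the lowest strain for Kcnj10, is the strain of the reference genome, and alignment was not tested. Some genes beside Kcnj10 on chromosome 1 are named here after their values were seen. Kcnj9, the nearest gene on one side, was 31.7 ± 4.40 cpm in C57BL/6J and 25.3 ± 0.890 to 35.0 ± 0.231 cpm elsewhere. Pigm, on the other side, was 19.9 ± 0.672 cpm in C57BL/6J, near its highest mean of 19.9 ± 0.463 cpm in PWK/PhJ. Igsf9, a little farther on, was lowest in the same 2 strains as Kcnj10, at 26.9 ± 3.30 cpm in C57BL/6J and 30.1 ± 1.72 cpm in CAST/EiJ, against strain means of 44.3 to 61.1 cpm in the other 6.

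Aqp4 (ENSMUSG00000024411.10, chr18:15389496-15410982) encodes the water channel that sits beside Kcnj10 at the endfeet of Müller glia. Over all libraries it lay between 40.5 and 63.7 cpm, with means that fell from 59.7 ± 4.76 cpm in CAST/EiJ through A/J, NOD/ShiLtJ, C57BL/6J, PWK/PhJ, 129S1/Svlmj and WSB/EiJ to 43.2 ± 3.26 cpm in NZO/HlLtJ. The strains that were low for Kcnj10, C57BL/6J and CAST/EiJ, were in the middle and at the top for Aqp4. Aqp4 was lower in NZO/HlLtJ (-0.30, q = 0.00014), a call that held under all 37 settings. It was lower in WSB/EiJ (-0.22, q = 0.00181), which was lost without replicate 2 (-0.20, q = 0.0152) or 3 (-0.16, q = 0.0368) of that strain, and higher in CAST/EiJ (0.22, q = 0.000944), which was lost without its replicate 3 (0.17, q = 0.0182) and with the rod genes as a covariate (0.17, q = 0.0128). A/J (0.17, q = 0.0109) missed the limit but was called, at 0.18, without replicate 2 of PWK/PhJ (q = 0.00598), 1 of WSB/EiJ (q = 0.00447), 1 of NZO/HlLtJ (q = 0.00808) or 3 of CAST/EiJ (q = 0.00924). The difference of NOD/ShiLtJ (0.16, q = 0.0184) was called, at 0.17, without replicate 2 of PWK/PhJ (q = 0.00986) or 1 of WSB/EiJ (q = 0.00761).

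Rlbp1 (ENSMUSG00000039194.16, chr7:79374870-79387048) encodes CRALBP, which carries retinoid in Müller glia and in the pigment epithelium. It lay between 66.9 and 96.8 cpm, with means of 93.2 ± 2.77 cpm in CAST/EiJ and 92.2 ± 4.68 cpm in NOD/ShiLtJ, followed by WSB/EiJ, A/J, NZO/HlLtJ, 129S1/Svlmj and PWK/PhJ, and 74.3 ± 4.48 cpm in C57BL/6J. The call in CAST/EiJ (higher, 0.20, q = 0.00155) was lost without its replicate 1 (0.18, q = 0.0138) and with the rod genes as a covariate (0.07). The call in NOD/ShiLtJ (0.18, q = 0.0082) held in 22 of 37 settings, and with the rod genes as a covariate the difference was 0.11 (q = 0.033). It was lost without any 1 of 9 libraries, with q-values from just above 0.01 to 0.0768: replicates 1, 2 and 3 of NOD/ShiLtJ, 2 of A/J, 3 of PWK/PhJ and WSB/EiJ, 2 and 3 of NZO/HlLtJ, and 2 of CAST/EiJ. The differences of C57BL/6J (-0.17, q = 0.0151) and PWK/PhJ (-0.14, q = 0.0129) missed the limit, and both were called with median-ratio scaling (-0.17 and -0.16) and with quantile normalization (-0.18 in each). C57BL/6J was called without replicate 1 of 129S1/Svlmj (-0.18, q = 0.00339) or 2 of WSB/EiJ (-0.18, q = 0.00693), and PWK/PhJ without the same 2 libraries (-0.15, q = 0.00362 and 0.00681) or 1 of C57BL/6J (-0.15, q = 0.00979). In 129S1/Svlmj Rlbp1 was -0.12 (q = 0.0488), and without both lens-rich libraries it was called lower (-0.20, q = 0.00907); without replicate 3 of NOD/ShiLtJ as well it missed the limit (-0.20, q = 0.0108).

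The second group forms the intermediate filaments of glia. Vim (ENSMUSG00000026728.9, chr2:13573927-13582826) encodes vimentin, which is present in resting Müller glia. In 129S1/Svlmj its libraries held 26.2, 54.4 and 27.5 cpm, and in NOD/ShiLtJ 26.3, 49.5 and 31.2 cpm. C57BL/6J had 25.8, 28.3 and 27.9 cpm and CAST/EiJ 17.2, 16.0 and 19.0 cpm. The libraries at 54.4 and 49.5 cpm were the lens-rich ones. The other libraries of these 2 strains overlapped C57BL/6J and PWK/PhJ, except replicate 3 of NOD/ShiLtJ at 31.2 cpm, which lay above both strains. Values were 22.5 to 27.5 cpm in PWK/PhJ, 22.1 to 24.0 cpm in A/J, 19.3 to 23.6 cpm in NZO/HlLtJ and 18.5 to 22.6 cpm in WSB/EiJ. The order of means on the log2 scale was NOD/ShiLtJ, 129S1/Svlmj, C57BL/6J, PWK/PhJ, A/J, NZO/HlLtJ, WSB/EiJ and CAST/EiJ, and on the cpm scale the first 2 changed places (36.0 ± 15.9 cpm in 129S1/Svlmj and 35.7 ± 12.2 cpm in NOD/ShiLtJ). Neighbours in this order did not differ at q under 0.01.

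Vim was lower in CAST/EiJ (-0.55, q = 0.00106), in 3 of 3 libraries and under all 37 settings. It was higher in NOD/ShiLtJ (0.54, q = 0.00375) and 129S1/Svlmj (0.52, q = 0.00382). Without replicate 2 of 129S1/Svlmj its difference was 0.19 (q = 0.12), and without replicate 2 of NOD/ShiLtJ the difference there was 0.28 (q = 0.0882). The call in NOD/ShiLtJ was also lost without its replicate 3 (0.60, q = 0.0102) and with the rod genes as a covariate (0.51, q = 0.01165). With both lens-rich libraries left out, the means were 26.9 ± 0.876 cpm (n = 2) in 129S1/Svlmj and 28.8 ± 3.51 cpm (n = 2) in NOD/ShiLtJ. The 129S1/Svlmj call was then absent, NOD/ShiLtJ was higher by 0.33 (q = 0.0017), C57BL/6J by 0.25 (q = 0.00312), and WSB/EiJ was lower (-0.21, q = 0.00504). CAST/EiJ remained lower (-0.46, q = 1.51e-06). Without replicate 3 of NOD/ShiLtJ as well, the call in NOD/ShiLtJ was lost (0.21, q = 0.143, from 1 library) and CAST/EiJ was lower (-0.45, q = 2.28e-06). With the summed lens genes as a covariate, another setting chosen after the data were seen, the difference in 129S1/Svlmj was 0.30 (q = 0.0118) and the call in NOD/ShiLtJ was kept. With ordinary variance both calls were lost at the same differences (q = 0.0119 and 0.0122). The source of the Vim RNA in the lens-rich libraries was not tested.

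**Figure D3:**
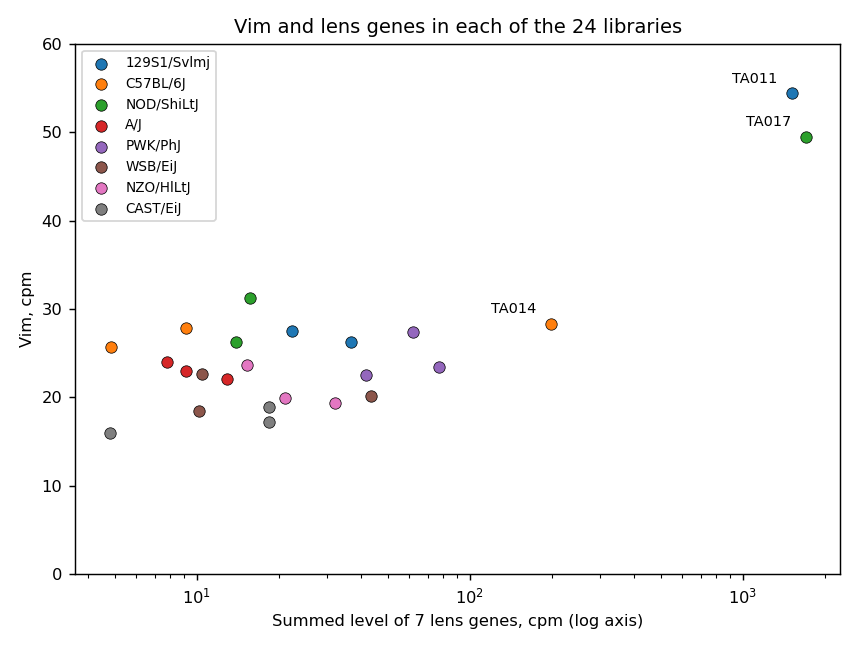
Vim in cpm (vertical axis) against the summed level of 7 lens genes in cpm (horizontal axis, log scale) in each of the 24 libraries, coloured by strain. The lens-rich libraries TA011 and TA017 have 54.4 and 49.5 cpm of Vim, while the other 22 libraries lie between 16.0 and 31.2 cpm.

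Gfap (ENSMUSG00000020932.14, chr11:102887336-102900912) encodes glial fibrillary acidic protein, the usual marker of gliosis. The A/J libraries held 15.0, 10.9 and 10.9 cpm, the PWK/PhJ libraries 6.82, 8.32 and 7.20 cpm and the NOD/ShiLtJ libraries 4.21, 4.69 and 12.4 cpm. A/J lay above all libraries of the other strains except replicate 3 of NOD/ShiLtJ at 12.4 cpm, which was well above the other 2 of its strain. 129S1/Svlmj had 4.24, 6.68 and 5.40 cpm, C57BL/6J 3.79, 4.70 and 5.91 cpm and CAST/EiJ 3.89, 2.85 and 4.67 cpm. NZO/HlLtJ had 6.28, 1.81 and 2.20 cpm and WSB/EiJ 2.38, 2.60 and 3.21 cpm. These last 2 strains had the lowest means, although replicate 1 of NZO/HlLtJ was high and replicate 2 of CAST/EiJ lay within the range of WSB/EiJ.

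The mean of Gfap was 12.3 ± 2.35 cpm in A/J and 2.73 ± 0.430 cpm in WSB/EiJ, a fold of 4.49. The order was A/J, PWK/PhJ, NOD/ShiLtJ, 129S1/Svlmj, C57BL/6J, CAST/EiJ, NZO/HlLtJ and WSB/EiJ, with no neighbours that differed at q under 0.01. A/J was higher than the other 7 strains by 1.25 (standard error 0.226, q = 6.72e-05), and by 1.10 to 1.32 as each library was left out. Between pairs of strains, A/J differed from 129S1/Svlmj, C57BL/6J, CAST/EiJ, NZO/HlLtJ and WSB/EiJ. The call against 129S1/Svlmj (A/J higher, q = 0.00355) was lost, with q-values up to 0.0175, without replicate 1 of either strain. A/J was not called apart from PWK/PhJ (0.64, q = 0.043). It missed the limit against NOD/ShiLtJ (q = 0.0135), from which it was called apart at a lowest q of 0.000333 without replicate 3 of NOD/ShiLtJ or 1 of NZO/HlLtJ.

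Gfap was lower in WSB/EiJ (-0.84, q = 0.00185), which was lost without replicate 1 (-0.77, q = 0.0132) or 2 (-0.81, q = 0.0111) of that strain. The call in NZO/HlLtJ (lower, -0.70, q = 0.00873) held in 17 of 37 settings. Without replicate 1 of NZO/HlLtJ, its highest library, the difference was -1.13 (q = 0.000339), and without its replicate 2 it was -0.44 (q = 0.117). The call was lost without any 1 of 16 libraries, with q-values from just above 0.01 to 0.117: replicates 2 and 3 of 129S1/Svlmj, C57BL/6J, WSB/EiJ and NZO/HlLtJ, 1, 2 and 3 of A/J and PWK/PhJ, and 1 and 3 of CAST/EiJ. PWK/PhJ (0.51, q = 0.0173) was called without replicate 3 of NOD/ShiLtJ (0.57, q = 0.00331) or 1 of NZO/HlLtJ (0.57, q = 0.00374). Without the lens-rich libraries and replicate 3 of NOD/ShiLtJ together, A/J was higher by 1.34 and PWK/PhJ by 0.60. The remaining NOD/ShiLtJ library held 4.21 cpm. Replicate 3 of NOD/ShiLtJ was set apart for its high Gfap and Sox9, so the larger differences follow from the choice.

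Sox9 (ENSMUSG00000000567.5, chr11:112782224-112787760) encodes a transcription factor kept on in Müller glia after they form. It was the least abundant of the 10 genes, from 1.20 to 2.65 cpm. A/J held 2.10, 2.57 and 2.23 cpm, NOD/ShiLtJ 1.47 to 2.65 cpm and C57BL/6J 1.28, 1.32 and 1.33 cpm. A/J was above every library of the other strains except replicate 3 of NOD/ShiLtJ, the same library that was high for Gfap. Means fell from 2.30 ± 0.246 cpm in A/J through NOD/ShiLtJ, WSB/EiJ, NZO/HlLtJ, PWK/PhJ, 129S1/Svlmj and CAST/EiJ to 1.31 ± 0.0270 cpm in C57BL/6J, a fold of 1.76.

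Sox9 was higher in A/J by 0.38 (q = 0.000264), in 3 of 3 libraries and in each of 36 settings. Without the lens-rich libraries and replicate 3 of NOD/ShiLtJ the difference was 0.44. That replicate was set apart for its high Gfap and Sox9, so the larger difference follows from the choice. The difference of NOD/ShiLtJ (0.23, q = 0.014) missed the limit, and was 0.37 (q = 0.000902) without its replicate 1 and 0.24 (q = 0.00792) without replicate 2 of 129S1/Svlmj. It was 0.09 (q = 0.265) without its replicate 3, and -0.04 (q = 0.538) from the 1 library that remained without the 3 that stood apart. Without replicate 1 of NOD/ShiLtJ, C57BL/6J (-0.22, q = 0.00795) and CAST/EiJ (-0.19, q = 0.00623) were also called lower; in the full set they had -0.20 (q = 0.0302) and -0.17 (q = 0.0219). Neighbours in the order did not differ at q under 0.01, apart from NOD/ShiLtJ and WSB/EiJ when replicate 1 of NOD/ShiLtJ was left out (q = 0.00697).

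The third group is secreted. Apoe (ENSMUSG00000002985.16, chr7:19696109-19699188) encodes apolipoprotein E, with which glia export lipid. Its libraries held 117, 120.1 and 119 cpm in NOD/ShiLtJ, 124, 108 and 123 cpm in C57BL/6J, and 92.9, 127 and 124 cpm in 129S1/Svlmj. NZO/HlLtJ had 84.4, 74.3 and 70.1 cpm and CAST/EiJ 72.3, 64.8 and 71.1 cpm. PWK/PhJ, A/J and WSB/EiJ lay between, at 98.2 to 114, 81.9 to 107 and 87.5 to 96.8 cpm. The CAST/EiJ and NZO/HlLtJ libraries overlapped each other, and of the rest only replicate 1 of A/J, at 81.9 cpm, fell within the range of NZO/HlLtJ.

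The means of Apoe were 118.6 ± 1.70 cpm in NOD/ShiLtJ, 118.4 ± 9.18 in C57BL/6J, 114.7 ± 18.9 in 129S1/Svlmj, 107.0 in PWK/PhJ, 97.3 ± 13.4 in A/J, 91.4 ± 4.82 in WSB/EiJ, 76.2 ± 7.35 in NZO/HlLtJ and 69.4 ± 4.02 in CAST/EiJ. Apoe was lower in CAST/EiJ (-0.55, q = 8.13e-07) and NZO/HlLtJ (-0.40, q = 0.000147) under all 37 settings. It was higher in NOD/ShiLtJ (0.33, q = 0.00109), a call kept as each single library was left out and lost when the 3 libraries that stood apart were left out together, where the difference was 0.32 from 1 library (q = 0.0737). The call in C57BL/6J (0.32, q = 0.00139) was lost without its replicate 1 (0.29, q = 0.0151) or 3 (0.29, q = 0.0163). In 129S1/Svlmj (0.26, q = 0.00524) the call was lost without replicate 2 (0.18, q = 0.0618) or 3 (0.19, q = 0.0651) and in 6 other of the 37 settings, and without replicate 1 the difference was 0.40 (q = 0.000188). WSB/EiJ and NZO/HlLtJ, neighbours at the lower end, were called apart only without replicate 1 of 129S1/Svlmj (q = 0.00782; 0.0213 in the full set).

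Clu (ENSMUSG00000022037.15, chr14:65968483-65981547) encodes clusterin, a secreted chaperone that also rides on lipoproteins. A/J held 114, 121 and 138 cpm, NOD/ShiLtJ 106, 138 and 109 cpm, and 129S1/Svlmj 81.5, 123 and 89.4 cpm. PWK/PhJ held 64.1, 70.3 and 59.3 cpm and CAST/EiJ 63.0, 55.7 and 66.7 cpm. In NOD/ShiLtJ and 129S1/Svlmj the lens-rich library was the highest of its strain, and PWK/PhJ and CAST/EiJ together lay below all libraries of the other 6 strains. C57BL/6J had 90.8 to 110.1 cpm, NZO/HlLtJ 83.1 to 93.0 cpm and WSB/EiJ 82.1 to 90.0 cpm. The order of means ran from A/J at 124 ± 12.7 cpm through NOD/ShiLtJ, C57BL/6J, 129S1/Svlmj, NZO/HlLtJ and WSB/EiJ at 85.0 ± 4.38 cpm to PWK/PhJ at 64.6 ± 5.53 cpm and CAST/EiJ at 61.8 ± 5.60 cpm.

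Clu was lower in CAST/EiJ (-0.61, q = 1.66e-06) and PWK/PhJ (-0.54, q = 8.14e-06) and higher in A/J (0.53, q = 3.18e-05), in 3 of 3 libraries of each strain and under all 37 settings. The call in NOD/ShiLtJ (0.43, q = 0.000316) was lost without its replicate 2 (0.31, q = 0.011), though with both lens-rich libraries left out it was present (0.34, q = 0.000715). Of the neighbours in the order, WSB/EiJ and PWK/PhJ differed (PWK/PhJ lower, -0.39, q = 0.00521), and this call was lost without replicate 1 or 3 of either strain, with q-values up to 0.0245. Over the 10 genes, this pair and the pair of CAST/EiJ and C57BL/6J for Kcnj10 were the 2 called among 70 neighbouring pairs.

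The 10 genes were described together by Pearson's correlation, as a description over points that share strains and libraries. Over the 8 strain means the 45 pairs of genes had coefficients from -0.44 (Rlbp1 and Apoe) to 0.88 (Vim and Apoe), with a median of 0.15 and 34 above 0. Over the 24 deviations from the strain means, which show whether genes rise together within strains, they ran from -0.24 (Aqp4 and Kcnj10) to 0.79 (Vim and Clu), with a median of 0.33. Without the lens-rich libraries the coefficient of Vim and Clu fell to 0.34, and the highest was 0.78 for Apoe and Clu. The lowest was then -0.42 for Kcnj10 and Clu, which had 0.11 with all libraries, and Vim and Gfap rose from 0.24 to 0.65. Kcnj10 and Aqp4, whose products share an anchoring complex, had -0.18 over strain means, and Gfap and Sox9 had 0.60. The 10 genes thus did not follow a single order of strains.

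Genes most like each member were taken from those with the highest correlation over the 8 strain means, among 6561 genes whose means spanned at least 0.5 in log2 units. For Glul they were Cd24a (0.95), Ccdc39 (0.93) and S100a6 (0.92). For Slc1a3 they were Gm47469 (0.93), H4c1 (0.92) and Tmem181c-ps (0.89), for Kcnj10 Parp2 (0.94), Gm3375 (0.92) and H4f16 (0.92), and for Aqp4 9430037G07Rik (0.92), Rnf144b (0.90) and Gm21982 (0.90). The genes most like Rlbp1 were Zfp809 (0.97), Cdan1 (0.95) and Gm10282 (0.94). With 8 points and 6561 genes, coefficients of this size are a description only.

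For Gfap the list was Arhgef37 (0.97), Nin (0.94) and Srebf1 (0.93), and for Sox9 Dcps and Arhgap4 (each 0.94). Apoe was most like Cadps2 (0.95), Efemp1 (0.94) and Lfng (0.94), and Clu was most like Wipi1, Capn1 and Kank2 (each 0.98). The genes most like Vim were Nid1, Sfrp1 (each 0.98) and Pakap (0.96). All 3 were also highest in the lens-rich libraries: Nid1 had 13.8 and 18.4 cpm there against 0.562 to 3.44 cpm in the other 22, and Sfrp1 10.3 and 9.68 cpm against 0.574 to 2.03 cpm. Their correlation with Vim without these 2 libraries was not computed.

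Other genes of the same processes were taken from lists, each described by its counts of called genes. For all genes tested, the shares called higher and lower were 14.5% and 13% in 129S1/Svlmj, 12.5% and 10% in C57BL/6J, 14.9% and 9.14% in NOD/ShiLtJ, 15.1% and 12.6% in A/J, 26.6% and 22.8% in PWK/PhJ, 12.7% and 21.9% in WSB/EiJ, 12.7% and 13.2% in NZO/HlLtJ, and 20.3% and 29.1% in CAST/EiJ. The counts of every list below are to be read against these shares. A list of 20 other Müller glia genes had 19 called by the F-test, all but Sox2 (q = 0.0162), with a median span of 0.56 and a median of 7 pairs called; over all genes the medians were 0.43 and 8. Against the other 7 strains its higher and lower counts were 4 and 2 in 129S1/Svlmj, 2 and 2 in C57BL/6J, 3 and 1 in NOD/ShiLtJ and 5 and 1 in A/J. They were 4 and 3 in PWK/PhJ, 0 and 6 in WSB/EiJ, 3 and 2 in NZO/HlLtJ and 1 and 5 in CAST/EiJ. The 5 of 20 lower in CAST/EiJ were a smaller share than over all genes, and the median difference of the list there was -0.02. Its widest spans were those of Cd44, Hes5, Dkk3 and Slc38a3. Cd44, a hyaluronan receptor on Müller glia, was 8.59 ± 0.682 cpm in PWK/PhJ and 8.41 ± 1.32 cpm in NOD/ShiLtJ, against 2.28 ± 0.0936 cpm in WSB/EiJ. Hes5, a target of Notch, was highest in NOD/ShiLtJ at 1.54 ± 0.167 cpm, and Dkk3, the most abundant of the list, was highest in PWK/PhJ at 236 ± 8.39 cpm.

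The complex that anchors Kcnj10 and Aqp4 at the endfeet was listed by 6 genes, all called by the F-test, with a median span of 0.51 and a median of 12 pairs called. In C57BL/6J, where Kcnj10 was low, 1 of the 6 was higher and 1 lower, and the most abundant, Dmd, lay between 341 and 422 cpm over all libraries. Utrn, which encodes utrophin, was highest in C57BL/6J at 47.9 ± 1.44 cpm and lowest in CAST/EiJ at 25.9 ± 0.485 cpm. Dag1 was highest in A/J (19.5 ± 0.636 cpm) and lowest in 129S1/Svlmj (13.1 ± 2.16 cpm), while Sntb1 was lowest in C57BL/6J (8.54 ± 0.687 cpm). The other strains had 2 higher and 1 lower in 129S1/Svlmj and A/J, 2 and 0 in NOD/ShiLtJ and NZO/HlLtJ, 1 and 3 in PWK/PhJ and CAST/EiJ, and 0 and 2 in WSB/EiJ.

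Handling of glutamate and GABA was listed by 7 genes, all called, with a median span of 0.53 and a median of 12 pairs. PWK/PhJ had 4 higher and 1 lower, and its summed level of 879.5 ± 21.5 cpm was the highest of the strains, while its Glul was among the lowest. Slc1a2, the most abundant of the list and a glutamate transporter found mainly in retinal neurons, was 256 ± 9.74 cpm in PWK/PhJ and 177 ± 8.94 cpm in NOD/ShiLtJ. Slc6a11, a GABA transporter, was 61.6 ± 2.25 cpm in PWK/PhJ and 41.4 ± 7.02 cpm in C57BL/6J. The glutamine transporter Slc38a3 was 142.7 ± 5.10 cpm in PWK/PhJ and 89.2 ± 10.8 cpm in 129S1/Svlmj, and Slc38a1 was 100.3 ± 2.63 cpm in WSB/EiJ and 67.6 ± 1.16 cpm in C57BL/6J. In the remaining strains the higher and lower counts were 2 and 1 in 129S1/Svlmj, 1 and 3 in C57BL/6J and CAST/EiJ, 0 and 1 in NOD/ShiLtJ, 1 and 0 in A/J, 2 and 3 in WSB/EiJ and 0 and 0 in NZO/HlLtJ.

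The list of reactive gliosis genes held 28, of which 19 were tested and all 19 called by the F-test. The 9 under the limit on low values were Edn2, Lif, Steap4, Timp1, Cxcl10, Hspb1, Bcl3, Ccl2 and Cd14, each with a mean under 0.5 cpm. The median span of the 19 was 0.82 and the median number of pairs 12, against 0.43 and 8 over all genes tested. Higher and lower counts were 9 and 1 in A/J, 7 and 2 in C57BL/6J, 7 and 1 in NOD/ShiLtJ and 5 and 2 in 129S1/Svlmj. They were 4 and 7 in WSB/EiJ, 2 and 9 in PWK/PhJ, 2 and 10 in NZO/HlLtJ and 3 and 10 in CAST/EiJ. Higher counts exceeded lower ones in A/J, C57BL/6J, NOD/ShiLtJ and 129S1/Svlmj, and the reverse held in the other 4 strains, with median differences from 0.21 in A/J to -0.24 in NZO/HlLtJ. In WSB/EiJ the median was only -0.06, and its 4 of 19 higher were a larger share than over all genes (12.7%). The summed list was highest of all libraries in the lens-rich replicate 2 of 129S1/Svlmj, at 169 cpm, against 133 and 145 cpm in the others of that strain. The counts of the list include the lens-rich libraries. No test of the list as a whole was made.

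Serpina3n, a protease inhibitor that rises in reactive astrocytes, was 6.41 ± 0.538 cpm in 129S1/Svlmj and 0.379 ± 0.243 cpm in NZO/HlLtJ. Synm, which encodes the filament protein synemin, was 20.0 ± 0.907 cpm in C57BL/6J and 3.60 ± 0.280 cpm in CAST/EiJ. Nes, the filament protein of glial progenitors, was 4.75 ± 0.282 cpm in NOD/ShiLtJ, 1.31 ± 0.285 cpm in PWK/PhJ and 1.16 ± 0.0931 cpm in CAST/EiJ. Synm and Nes were lowest in CAST/EiJ, as Vim was, in a strain where 29.1% of all genes tested were called lower. The filament gene Gfap was lowest in WSB/EiJ instead (2.73 ± 0.430 cpm), and its difference in CAST/EiJ was not called (-0.43, q = 0.0318). Mt1, a metallothionein, was 10.5 ± 1.10 cpm in WSB/EiJ and 2.50 ± 0.570 cpm in PWK/PhJ. Edn2, an endothelin, was below the filter and not tested, and is named after its values were seen. It was 1.14 ± 0.0944 cpm in A/J, the strain with the highest Gfap, against strain means of 0.0436 to 0.305 cpm elsewhere. Among the list genes under the filter, the highest mean was in A/J for Edn2, Lif, Cxcl10 and Bcl3. It was in PWK/PhJ for Steap4 and Timp1, in NOD/ShiLtJ for Hspb1 and Ccl2, and in 129S1/Svlmj for Cd14. Means of Timp1, Cxcl10 and Ccl2 lay near the limit of detection.

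Lipoprotein handling was listed by 11 genes, of which 8 were tested and called by the F-test, with a median span of 0.52 and a median of 12 pairs. Apod, Trem2 and Lcat had means of 0.239 to 0.421 cpm and were not tested. Higher and lower counts were 2 and 1 in 129S1/Svlmj and C57BL/6J, 1 and 1 in NOD/ShiLtJ, 1 and 3 in A/J and CAST/EiJ, 2 and 2 in PWK/PhJ, 2 and 4 in WSB/EiJ, and 1 and 0 in NZO/HlLtJ. Lrp2, which encodes the receptor megalin, was 29.8 ± 2.86 cpm in 129S1/Svlmj and 8.25 ± 0.775 cpm in CAST/EiJ. Lrp1, a receptor for Apoe, was highest in A/J at 72.2 ± 12.1 cpm and lowest in CAST/EiJ at 39.6 ± 6.58 cpm, and Sorl1 was 60.1 ± 2.08 cpm in WSB/EiJ and 33.2 ± 6.82 cpm in CAST/EiJ. Abca1, which loads lipid onto Apoe, had means of 18.3 ± 0.420 to 27.1 ± 0.315 cpm and no pair of strains that differed.

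**Figure D4:**
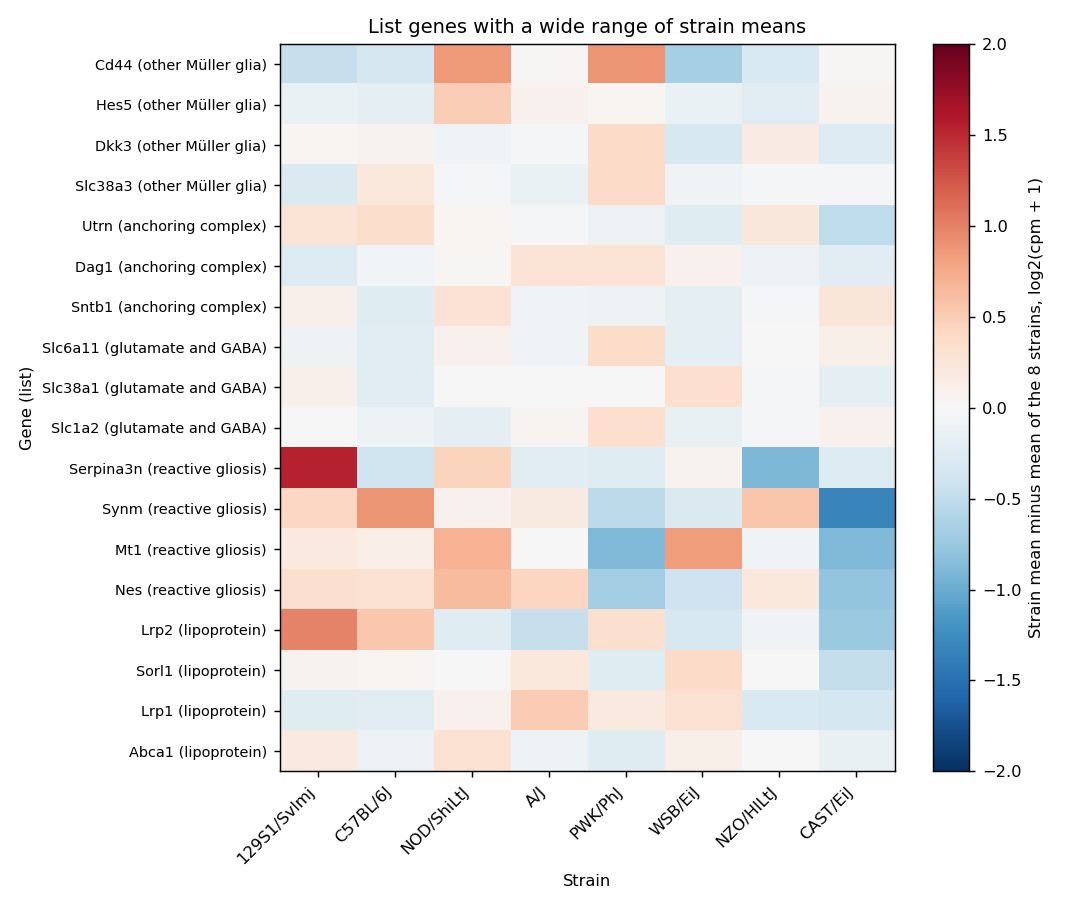
Difference of each strain mean (columns) from the mean of the 8 strains, in log2(cpm + 1), for list genes with wide spans (rows, with their list in parentheses); red is higher and blue lower. Serpina3n in 129S1/Svlmj and Synm in CAST/EiJ are the strongest red and blue cells, and Synm, Nes and Mt1 are blue in both PWK/PhJ and CAST/EiJ.

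Several marker lists of other cells differed in the strains in which the 10 genes stood out. Of 6 microglia markers tested, 6 were higher in A/J (15.1% of all genes) and 6 lower in CAST/EiJ (29.1% of all genes), where the list summed to 10.2 to 10.7 cpm and 4.51 to 5.13 cpm, against 5.53 to 8.89 cpm in the other 18 libraries. The higher and lower counts were 3 and 0 in C57BL/6J, 2 and 0 in NOD/ShiLtJ, 0 and 1 in 129S1/Svlmj and NZO/HlLtJ, and 0 and 2 in PWK/PhJ and WSB/EiJ. Csf1r was its most abundant gene, at 1.80 to 3.79 cpm, and no marker was at 0. Of 8 rod markers, 6 were lower (12.6% of all genes) and 1 higher in A/J, where they summed to 10237 to 10658 cpm, against 9619 to 12896 cpm over all libraries. In CAST/EiJ 3 of 8 were higher (20.3% of all genes) and 0 lower. Of 6 ganglion cell markers, 5 were lower in CAST/EiJ (29.1% of all genes), where they summed to 130.4 to 132.5 cpm against 162 to 233 cpm in the other strains, with Nefl as the most abundant. Cone and bipolar markers had the most pairs of strains called, a median of 19 of 28 in each list. Of 6 cone markers, 5 were higher in C57BL/6J (12.5% of all genes), where they summed to 275 to 307 cpm, and 4 in PWK/PhJ (26.6%) and WSB/EiJ (12.7%), while 4 were lower in NOD/ShiLtJ (9.14%) and A/J (12.6%). Of 6 bipolar markers, 4 were lower (29.1%) and 2 higher (20.3%) in CAST/EiJ, and 1 was lower (13.2%) and 4 higher (12.7%) in NZO/HlLtJ. No cone or bipolar marker was at 0. The part of these cell types in the differences of the 10 genes was not tested.

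Astrocyte markers bear on Gfap. The defining gene Pax2 was at most 0.0879 cpm and was listed at 0 in replicate 2 of 129S1/Svlmj, and the most abundant of the 6, Pdgfra, lay between 4.38 and 9.76 cpm. Summed levels were 23.0 to 29.2 cpm in A/J and 29.0 to 32.1 cpm in PWK/PhJ, 21.5 to 29.4 cpm in NOD/ShiLtJ, 21.2 to 27.4 cpm in C57BL/6J and 16.3 to 33.6 cpm in 129S1/Svlmj. They were 19.2 to 21.9 cpm in WSB/EiJ, 13.9 to 17.8 cpm in NZO/HlLtJ and 12.6 to 15.2 cpm in CAST/EiJ. Of the 5 tested, 2 were higher and 1 lower in A/J, 129S1/Svlmj and C57BL/6J alike, 1 and 0 in NOD/ShiLtJ, 2 and 2 in PWK/PhJ, 1 and 1 in WSB/EiJ, 1 and 3 in NZO/HlLtJ, and 0 and 4 in CAST/EiJ. Within the list, genes differed in their highest strain, which was A/J for Pdgfra and Slc14a1, PWK/PhJ for S100b, C57BL/6J for Gja1 and WSB/EiJ for Aldh1l1. Replicate 3 of NOD/ShiLtJ, high for Gfap, had 22.4 cpm of astrocyte markers, between the other libraries of its strain, and 8.69 cpm of microglia markers, against 8.40 and 8.62 cpm in those. The part of astrocytes in the Gfap differences was not tested.

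Other tissue was low and uneven. Pigment epithelium markers, a cell type that also expresses Rlbp1, summed to 11.4 to 70.7 cpm, with Ttr as the most abundant and Best1 at 0 in some libraries. Of 7 tested, 6 were lower in CAST/EiJ (29.1% of all genes), although Rlbp1 was highest there, and 5 lower in PWK/PhJ (22.8%), while 4 were higher in A/J (15.1%) and in WSB/EiJ (12.7%). Blood genes summed to 7.45 to 30.7 cpm, highest in replicate 3 of NOD/ShiLtJ, with Hbb-bs as the most abundant. Markers of endothelium and pericytes summed to 59.2 to 112 cpm, with Kdr as the most abundant. In CAST/EiJ Kdr and the sum were highest, but of the 6 markers 1 was called higher and 3 lower there, with a median difference of -0.20. The part of these tissues in the results was not tested.

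Stretches upstream of RefSeq transcript starts were examined for motifs of factors with a known place in glial gene control. The reason was that Gfap, Vim and Kcnj10 differed in their strain patterns. RefSeq windows of 250 bases before to 50 bases after the start on GRCm38.p6 were available for 7 of the 10 genes, 9 windows in all. Missing were Aqp4, Sox9 and Clu. The motifs, searched on both strands, were TTCNNNGAA for STAT factors, TTGGC for nuclear factor I (which also forms part of its full palindrome) and ACAAT for Sox factors. Of all 32851 windows 8.30% held the first, 46.7% the second and 31.0% the third, and 0.0365% held the full palindrome of nuclear factor I, which was in none of the 9 windows. The 250 upstream bases of the genes with the widest spans and of Slc1a3, the steadiest, are shown 5′ to 3′ on the strand of the gene with matches in capitals. The windows are chr1:172340960-172341259 on the plus strand for Kcnj10, chr11:102897151-102897450 on the minus strand for Gfap, chr2:13574061-13574360 on the plus strand for Vim and chr15:8710758-8711057 on the minus strand for Slc1a3. The Gfap and Vim windows lie within the spans of these genes given above, at a RefSeq start inside the gene. Their stretches are thus not the sequence before the outer gene start. The Kcnj10 and Slc1a3 windows reach beyond the outer start.
Kcnj10: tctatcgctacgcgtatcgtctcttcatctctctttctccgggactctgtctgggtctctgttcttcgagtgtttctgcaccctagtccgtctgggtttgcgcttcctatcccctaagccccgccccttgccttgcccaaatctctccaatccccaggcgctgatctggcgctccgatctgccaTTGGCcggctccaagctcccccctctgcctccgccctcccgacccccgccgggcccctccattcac
Gfap: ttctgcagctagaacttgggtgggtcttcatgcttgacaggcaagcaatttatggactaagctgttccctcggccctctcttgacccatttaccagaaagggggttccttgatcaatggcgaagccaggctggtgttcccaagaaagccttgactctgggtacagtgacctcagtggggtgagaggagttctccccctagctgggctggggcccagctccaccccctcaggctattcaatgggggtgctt
Vim: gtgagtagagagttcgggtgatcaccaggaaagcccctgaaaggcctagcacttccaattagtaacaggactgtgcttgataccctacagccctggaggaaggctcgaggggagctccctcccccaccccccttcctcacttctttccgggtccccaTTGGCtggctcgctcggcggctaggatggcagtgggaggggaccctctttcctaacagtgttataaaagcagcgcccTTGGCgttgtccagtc
Slc1a3: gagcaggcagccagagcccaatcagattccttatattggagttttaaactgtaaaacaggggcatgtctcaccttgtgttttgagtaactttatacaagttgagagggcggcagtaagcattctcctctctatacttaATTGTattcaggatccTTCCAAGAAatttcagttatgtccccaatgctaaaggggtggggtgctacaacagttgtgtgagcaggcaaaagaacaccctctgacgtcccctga
The Kcnj10 stretch holds 1 match of the nuclear factor I motif and the Vim stretch holds 2. Slc1a3 holds a STAT match and a Sox match upstream. The STAT match of Gfap lies in the 50 bases after the RefSeq start inside the gene, and the 250 bases before that start hold none of the motifs. The guanine and cytosine content of these stretches was 62.0% for Kcnj10, 55.6% for Gfap, 58.4% for Vim and 44.8% for Slc1a3. The sequences are those of the reference strain C57BL/6J, and a match describes letters only. Differences of the other strains in these stretches were not examined.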

How the data were processed

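Retinal RNA sequencing libraries of 8 strains (3 each) were compared. Per the labels and the study's methods, the authors aligned reads with STAR to GRCm38 (mm10) and counted them per gene in Partek Flow. The deposited values are cpm: the authors divided counts by the library's total reads and added 0.0001. Between 88.3% and 90.4% of low values were whole reads within 0.05 reads, so no count model was used. Genes whose mean reached 0.5 cpm entered two-sided tests on log2(cpm + 1) by limma 3.58.1 (R 4.3.3; lmFit, then eBayes allowing a trend). Storey's q-value was limited to 0.01, over genes, and over genes and 28 pairs together for pairs. Figures and summaries used Python 3.11.15, pandas 2.3.3, numpy 2.4.6 and matplotlib 3.10.9. Depths of 57.6 to 78.1 M reads put 3 reads at 0.0384 to 0.0521 cpm. Named list genes were taken from the up to 4 with the widest span per list. The members and lists were chosen with earlier results of these data known. Alternatives were a pseudocount of 0.1, no filter or a mean of 5 cpm, median-ratio scaling, quantile normalization, Benjamini-Hochberg adjustment, a q-value limit of 0.05, ordinary variance, covariates (Xist, rod genes) and leaving out each library. Leaving out the libraries that stood apart and a lens covariate were added after the data were seen. Phenotypes of the strains, measured in other mice, were not used.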

Additional observations from a re-analysis of the deposited data

How the results depend on the processing

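For 10 spans, 10 differences of 1 strain each and 10 counts under 37 alternative settings, 1089 of 1108 recomputed values kept their direction and their side of the limit (counts: stayed within 1.5 times), 18 became weaker, 1 stronger and 0 reversed. Outside these values, of all 35 called differences 20 were lost in 1 or more settings and 1 changed sign (Glul in C57BL/6J, -0.09 with quantile normalization). The count in 129S1/Svlmj (4 genes) became 2 with ordinary variance and, in settings chosen after seeing the data, 1 without both lens-rich libraries, 1 with the lens covariate and 0 without the 3 libraries that stood apart. That in NOD/ShiLtJ (5) became 3 with ordinary variance, 3 with the rod covariate and 1 without those 3 libraries. That in PWK/PhJ (3) became 6 at a q-value limit of 0.05. Leaving out each library in turn gave 0 to 5 genes in 129S1/Svlmj, 2 to 5 in C57BL/6J, 2 to 6 in NOD/ShiLtJ, 4 to 6 in A/J, 2 to 4 in PWK/PhJ and WSB/EiJ, 2 to 3 in NZO/HlLtJ and 5 to 8 in CAST/EiJ, and 100 to 117 pairs against 110. The cause was not tested, apart from the fewer libraries themselves. With the filter at 5 cpm Sox9 gave no value. Scaling moved the median of all genes by less than 0.1 in log2 units. The log2(cpm + 1) scale compresses low levels such as those of Sox9.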
